A study of Mus musculus with 2 samples.

Results

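The expression of Ltb and of 5 partner genes of the lymphotoxin and TNF axis (Lta, Tnf, Ltbr, Tnfrsf1a and Tnfrsf1b) was described across the cell types of the E14.5 fetal liver. These 6 of the 32285 genes in the count tables were selected on the measured KO/WT ratio of Ltb, which was raised in the IκBα KO library. The KO/WT values of Ltb are therefore a description, with no test. Lineage-depleted fetal liver cells of CD1 embryos, an outbred stock, were sorted for the LSK phenotype and profiled by droplet-based 3' single-cell RNA sequencing. For WT, 2 embryos were pooled into the library, and for KO 3 embryos that carried the targeted allele Nfkbia tm1Bal and lacked IκBα, the product of this gene, in every tissue. LT-HSC stands in the titles of both samples and LSK in their cell type field.

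Each genotype had 1 library, which left no replicate error and no test. All intervals below are 95% intervals that cover counting error only, and all but those of differences between shares are exact. Genotype, pool of embryos and library cannot be told apart. Filtering left 3458 cells in the WT library, at 28065 UMIs in the median cell, and 4417 cells in the KO library, at 19560 UMIs. A UMI marks an original RNA molecule, and levels are given in CPM, counts per 1000000 UMIs of the same cells. The libraries shared 7 cell barcodes. Cells with Y-linked UMIs and no Xist made up 17.4% of the KO library and 0.116% of the WT library.

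Lymphotoxin β, encoded by Ltb, is a membrane protein that is held at the cell surface together with lymphotoxin α, the product of Lta. The complex binds the lymphotoxin β receptor, encoded by Ltbr, on neighbouring cells, and this receptor is known for the alternative NF-κB pathway that runs through NIK and RELB. TNF binds TNF receptor 1, encoded by Tnfrsf1a, and TNF receptor 2, encoded by Tnfrsf1b, and signals mainly through the classical pathway, in which IκBα holds NF-κB dimers in the cytoplasm. In embryos the axis is best known from lymphoid tissue inducer cells, which carry lymphotoxin and induce lymph nodes. Nfkbia is itself a target of NF-κB.

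The 3 ligand genes lie side by side on chromosome 17 (GRCm38, GENCODE vM21). Ltb (ENSMUSG00000024399, plus strand) spans 35194439 to 35196320, Tnf (ENSMUSG00000024401, minus strand) begins 3061 bases beyond its end at 35199381 and runs to 35202007, and Lta (ENSMUSG00000024402, minus strand) spans 35203165 to 35205351. Ltbr (ENSMUSG00000030339, minus strand, 125306571 to 125313885) and Tnfrsf1a (ENSMUSG00000030341, plus strand, 125349362 to 125362484) are neighbours on chromosome 6, 35477 bases apart. Tnfrsf1b (ENSMUSG00000028599, minus strand) lies on chromosome 4 at 145213463 to 145246870. All 6 are protein-coding.

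The sequences before the start of Ltb and Tnf are shown with that of Nfkbia, because all 3 genes are known to be regulated by NF-κB. They are from RefSeq (GRCm38.p6), 5′ to 3′ on the strand of the gene, and end at the start of the annotated gene. Capitals mark matches to the 9 letters GGANNTTCC, a loose form of the κB motif, on either strand.
Ltb, chr17:35194257-35194438, plus strand: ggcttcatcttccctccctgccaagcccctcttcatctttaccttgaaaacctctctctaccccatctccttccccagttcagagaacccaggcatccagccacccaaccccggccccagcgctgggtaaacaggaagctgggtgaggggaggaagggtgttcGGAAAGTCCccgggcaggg
Tnf, chr17:35202008-35202257, minus strand: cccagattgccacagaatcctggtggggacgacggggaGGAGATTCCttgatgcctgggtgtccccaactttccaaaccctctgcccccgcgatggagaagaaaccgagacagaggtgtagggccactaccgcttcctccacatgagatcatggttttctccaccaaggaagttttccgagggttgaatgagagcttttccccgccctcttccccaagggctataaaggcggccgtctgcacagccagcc
Nfkbia, chr12:55492648-55492897, minus strand: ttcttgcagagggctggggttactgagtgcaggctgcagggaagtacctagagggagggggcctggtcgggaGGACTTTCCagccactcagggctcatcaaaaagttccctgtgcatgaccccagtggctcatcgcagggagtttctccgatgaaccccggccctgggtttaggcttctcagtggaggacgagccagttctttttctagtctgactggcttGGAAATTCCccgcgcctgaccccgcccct

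The match of Ltb, read on the opposite strand, was GGACTTTCC, the same 9 letters as the distal match of Nfkbia. Motifs were searched in the 250 bases before each RefSeq start. For Ltb and Tnfrsf1a this start lies inside the annotated gene, so the sequence shown for Ltb is shorter than the searched window and the window of Tnfrsf1a falls within the gene. The match of Ltb began 87 bases before its RefSeq start. The loose motif was present in the window of 3.59% of 32851 promoters and GGACTTTCC, which is contained in it, in 0.283%. Both motifs were chosen after the Ltb sequence had been seen. The 4 searched windows of Lta, Ltbr, Tnfrsf1a and Tnfrsf1b held neither.

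To follow the genes through the sorted cells, cells were assigned to 12 types by the summed level of marker genes, without using the members. For many cells the markers went against the LSK name. Erythroid progenitors were 27.3% of filtered cells in WT and 25.7% in KO, and erythroblasts 18.0% and 22.4%. Hepatocyte, endothelial and macrophage gates also held cells, whereas stem-gated cells were 12.9% and 10.1%. The cause of this mismatch was not tested. The targeted gene was examined first. Nfkbia had 1478 UMIs in the WT library and 7 UMIs in the KO library, and stem-gated cells had 151 of the WT UMIs and 0 of the KO UMIs, where 3 UMIs would have been 0.598 CPM. The libraries thus matched their labels. The stem gate required 400 CPM over 9 stem cell markers and took 447 WT and 444 KO cells. Hlf, a transcription factor of stem cells, was at 281 CPM in these WT cells and at 249 CPM in these KO cells, and Mecom was at 121 and 120 CPM. Of the KO cells, 107 lay within 100 CPM above the cut-off and 131 within 100 CPM below it, against 80 and 128 WT cells.

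Ltb was a gene of the stem and early progenitor cells. In stem-gated cells it had 1471 UMIs in WT and 1819 UMIs in KO, or 205 CPM (195 to 216) and 363 CPM (346 to 380). Multipotent progenitors, taken by Cd34, Cd48 and Kit among 6 markers, had 45.5 CPM (42.5 to 48.8) for WT and 87.3 CPM (82.2 to 92.7) for KO. Lymphoid-primed progenitors, taken by Flt3, Il7r and Notch1 among 10 markers, had 72.8 CPM (64.9 to 81.3) and 115 CPM (104 to 128). The counting intervals of the 2 libraries did not overlap in any of these 3 gates, and KO was the higher each time. At the other end, erythroblasts held 7 Ltb UMIs in 624 WT cells and 16 in 988 KO cells, or 0.448 and 0.893 CPM. Over all filtered cells, Ltb was at 28.4 (WT) and 43.4 CPM (KO).

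Between these ends, the order of the WT levels was macrophages (33.6 CPM), monocyte progenitors (9.58), megakaryocytes (6.54), neutrophil progenitors (5.56), basophil and mast cell progenitors (4.82), hepatocytes (3.87), endothelial cells (2.66) and erythroid progenitors (1.20). From monocyte progenitors to endothelial cells the counting intervals of neighbours overlapped. In KO the order began in the same way with stem, lymphoid, multipotent and macrophage gates.

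**Figure D1:**
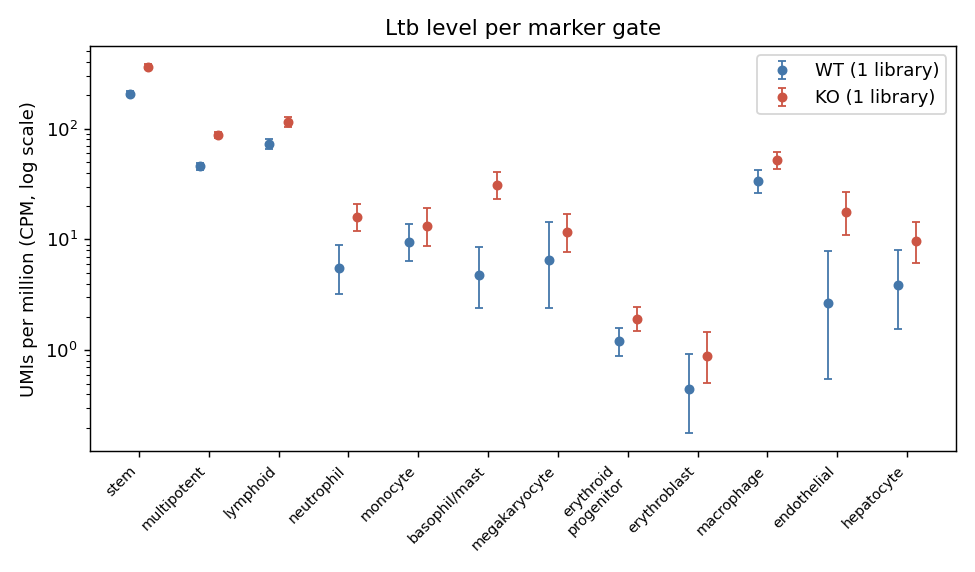
Ltb level in CPM (log scale) in each marker gate, with 1 point per library and bars for the exact 95% Poisson interval (counting error only). Levels run from 0.448 CPM in WT erythroblasts to 363 CPM in KO stem-gated cells, and the KO point lies above the WT point in all 12 gates, although the intervals overlap in monocytes, megakaryocytes, erythroid progenitors, erythroblasts and hepatocytes.

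On the log2 scale the KO/WT difference of Ltb was 0.82 (0.72 to 0.92) in stem-gated cells, 0.94 (0.81 to 1.07) in multipotent progenitors and 0.67 (0.45 to 0.89) in lymphoid-primed progenitors. Among genes with at least 20 UMIs, KO was at least 1.5-fold above WT for 3.16% of 11143 genes in the stem gate and for 3.31% of 11771 genes in the multipotent gate. The same held for 4.20% of 9853 genes in the lymphoid gate. Ltb was the only member past that ratio in each of the 3 gates, as the choice of genes had set. Among the 6177 genes with at least 200 UMIs in stem-gated cells, Ltb ranked 8 by KO/WT. Higher ratios were found for the hepatocyte genes Alb and Afp, the platelet gene Pf4, and Hddc3, Tmem14c, Rnaset2a and Wdr89, which were listed after their values had been seen.

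The hepatocyte genes moved with the library in the same cells. All 8 hepatocyte markers were detected in stem-gated cells of both libraries, with a summed level of 59.1 (WT) and 132 CPM (KO). Macrophage markers summed to 18.7 and 18.9 CPM and endothelial markers to 40.1 and 44.6 CPM. Stromal markers summed to 19.5 (WT) and 2.59 CPM (KO), with 5 of 7 at 0 in KO. Hepatocytes themselves held little Ltb, at 3.87 (WT) and 9.59 CPM (KO), and the part of hepatocyte RNA in the Ltb values was not tested.

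Within the immature cells, Ltb rose with the level of the stem cell markers. Progenitors outside the erythroid and mature gates, ungated cells included, were split by the summed level of the 9 stem markers. Below 100 CPM of these markers, Ltb was at 20.5 CPM (18.4 to 22.8) in 558 WT cells and at 45.5 CPM (42.0 to 49.2) in 659 KO cells. From 400 to 600 CPM, it was at 147 CPM (134 to 161) in WT and at 251 CPM (232 to 271) in KO. At 900 CPM or more, it reached 315 CPM (290 to 341) in 149 WT cells and 581 CPM (538 to 625) in 133 KO cells. Ltb thus rose from each of the 7 steps to the next in both libraries. KO was above WT at each step, with log2 differences from 0.56 (0.33 to 0.78) at 100 to 200 CPM to 1.15 (0.96 to 1.34) below 100 CPM. The steps were not matched on UMIs per cell, with which Ltb also moved. The part of depth in the rise and in the KO/WT differences was not tested.

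**Figure D2:**
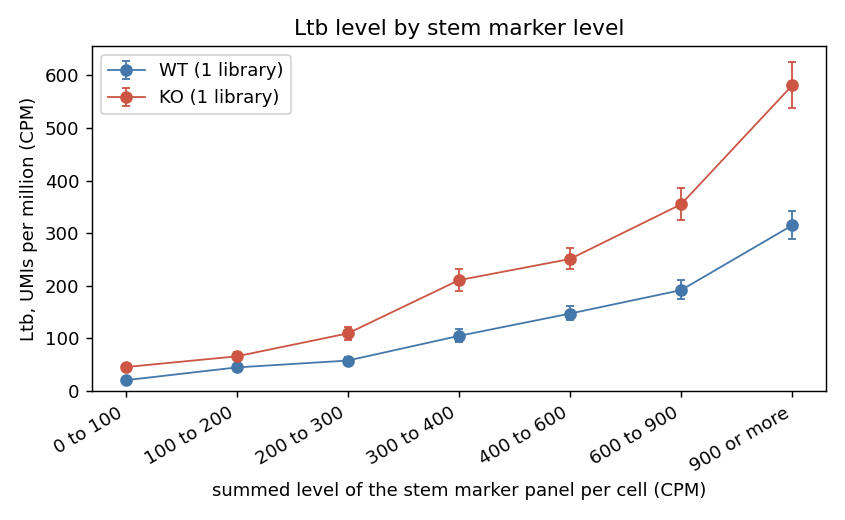
Ltb level in CPM against the summed level of 9 stem cell markers per cell, for progenitors outside the erythroid and mature gates, with exact 95% Poisson intervals (counting error only). Both libraries rise from left to right, and the KO points lie above the WT points at all 7 steps, up to 581 CPM against 315 CPM. Cells were not matched on their number of UMIs.

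Ltb was then counted cell by cell. Because WT cells were deeper, each cell was thinned to 5000 UMIs, which left out 12 WT and 27 KO cells of the stem gate. At this depth, at least 1 Ltb UMI was held by 55.9% (51.0 to 60.6) of the 435 cells in WT and by 72.4% (67.9 to 76.7) of the 417 in KO, a difference of 16.6 percentage points (9.99 to 23.0). Positive cells held 2.12 Ltb UMIs on average in WT and 2.98 in KO. Cells with 5 or more made up 3.68% in WT and 14.9% in KO. In multipotent progenitors the positive shares were 17.9% and 30.8%, and in lymphoid-primed progenitors 17.5% and 34.3%. Erythroblasts, which should lack Ltb, had a Ltb UMI in 0 of 617 thinned WT cells, where the limit set by 3 cells allows a share of up to 0.486%, and in 0.306% of 979 KO cells. Without thinning, 1.12% of 624 WT and 1.21% of 988 KO erythroblasts had one. Over 20 further draws of the thinning the KO/WT difference ranged from 9.62 to 18.1 percentage points in the stem gate, from 9.04 to 15.3 in multipotent progenitors and from 2.96 to 16.2 in lymphoid-primed progenitors, with a median of 10.5. The first lymphoid draw, at 16.8 points, lay above all of these. The unthinned shares in stem-gated cells were 82.6% and 86.7%, at median depths of 15157 and 10291 UMIs. The stem gate difference was 3.73 percentage points (-3.88 to 11.1) after thinning to 10000 UMIs, which left out 78 WT and 212 KO cells, those that had the highest Ltb levels.

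**Figure D3:**
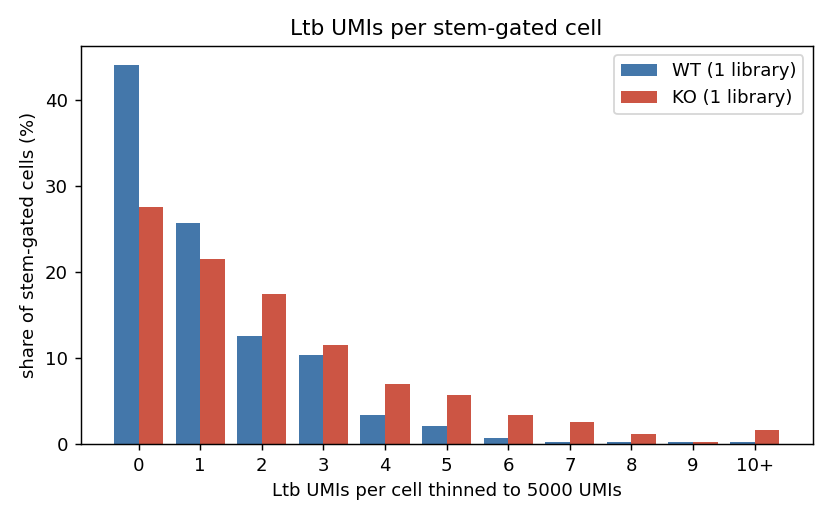
Share of stem-gated cells (%) by the number of Ltb UMIs per cell after thinning to 5000 UMIs, with 1 bar per library and number. Cells without Ltb make up 44.1% of WT and 27.6% of KO cells, and the KO bars are the higher ones from 2 UMIs upwards (0.240% against 0.230% at 9).

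The number of UMIs per cell moved with Ltb. Stem-gated cells with few UMIs had the highest Ltb level in both libraries. Where cells were matched on their number of UMIs, only the bin of the stem-gated cells with the fewest UMIs had an interval that excluded 0. Below 10000 UMIs, Ltb was at 400 CPM in 78 WT cells and 622 CPM in 212 KO cells, a log2 difference of 0.64 (0.43 to 0.85). From 10000 to 15000 UMIs the difference was 0.13 (-0.04 to 0.30), and from 15000 to 20000 UMIs it was -0.01 (-0.29 to 0.25). Over all cells of 10000 to 20000 UMIs, of which 155 KO cells but 141 WT cells lay below and 51 and 131 above 15000 UMIs, it was 0.26 (0.12 to 0.40) in the stem gate and -0.02 (-0.22 to 0.17) in multipotent progenitors. The multipotent bins went both ways. From 10000 to 15000 UMIs their difference was 0.25 (-0.07 to 0.58), and from 15000 to 20000 UMIs KO was the lower, at 74.3 CPM against 110 CPM, a difference of -0.56 (-0.83 to -0.30). Below and above this range it was 1.04 (0.45 to 1.69) and 0.27 (0.04 to 0.50).

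The median depth of WT cells was 1.43 times that of KO cells over all cells, 1.47 times in the stem gate, 1.45 times in multipotent progenitors and 1.43 times in erythroid progenitors. Cells were therefore also matched on their UMIs relative to the median of their own library. Below 0.4 of the median, Ltb was then at 358 CPM in 117 WT cells and 665 CPM in 112 KO cells. The log2 differences in the 4 bins of stem-gated cells, from few to many UMIs, were 0.89 (0.69 to 1.10), 0.91 (0.75 to 1.06), 0.75 (0.54 to 0.97) and 0.56 (0.27 to 0.85). In multipotent progenitors they were 0.27 (-0.37 to 0.90), 1.23, 1.19 and 0.73, and the intervals of the 3 bins with more UMIs lay above 0. The patterns of Gm5111 and Hoxa9 over the gates were the closest to that of Ltb. In the stem gate Hoxa9 gave -0.04, -0.32, -0.10 and 0.24 in these bins, and Gm5111 gave -0.23, -0.16, 0.17 and 0.62 (0.09 to 1.16). In the cells with the most UMIs the ratio of Gm5111 was thus as high as that of Ltb. In the 2 middle bins of raw UMIs Hoxa9 gave -0.41 and -0.41, and Gm5111 gave -0.22 and -0.06 with intervals that spanned 0. Whether the lower depth of KO cells is a property of the library or of the cells was not tested.

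**Figure D4:**
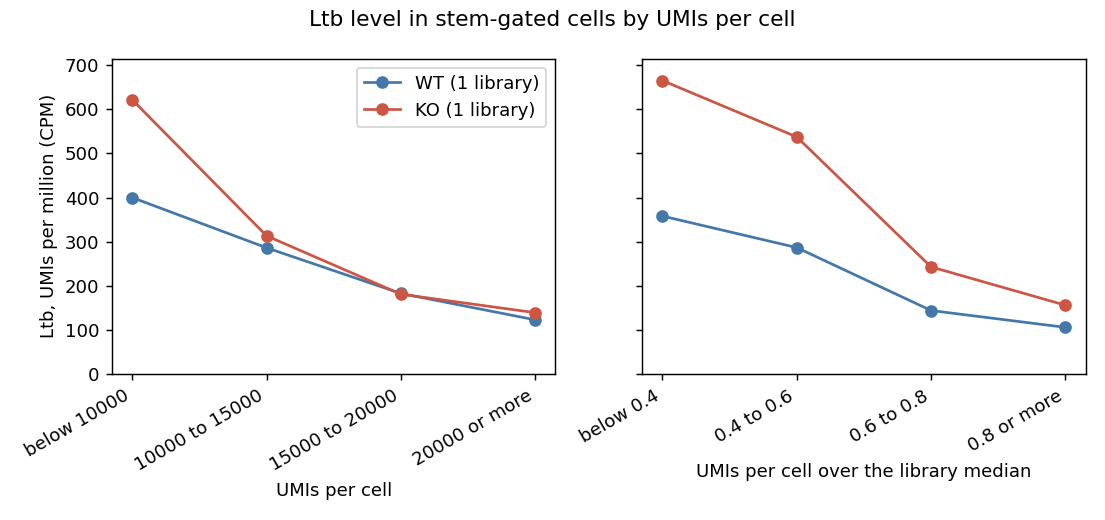
Ltb level in CPM in stem-gated cells of each library, binned by UMIs per cell (left) or by UMIs per cell relative to the median of the own library (right), 1 point per library and bin. On the left the libraries lie at 183 and 181 CPM at 15000 to 20000 UMIs, whereas on the right KO lies above WT in all 4 bins.

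Proliferation was examined in the same way. Stem-gated cells with less than 250 CPM over 10 proliferation genes were 32.4% of the gate in WT and 22.5% in KO. In these, Ltb was at 315 (WT) and 652 CPM (KO), a log2 difference of 1.05 (0.87 to 1.23). In the other stem-gated cells it was at 171 and 310 CPM, a log2 difference of 0.86 (0.73 to 0.98). In multipotent progenitors the differences were 1.18 (0.87 to 1.49) and 1.01 (0.86 to 1.16). Ltb was thus lower in the proliferating cells of each library and higher in KO on both sides of the split in these gates. The sides were not matched on UMIs per cell, and the part of depth in these differences was not tested. In lymphoid-primed cells the difference turned to -1.02 (-1.59 to -0.47) among cells with low proliferation genes and to -0.40 (-0.85 to 0.06) among cells of 10000 to 20000 UMIs, and it was 0.050 where each cell was given equal weight. The cell richest in Ltb held 53 UMIs in the WT and 70 UMIs in the KO lymphoid gate. Without these 2 cells the value of the whole gate was 0.65 (0.40 to 0.89). The subsets of the gate were not recomputed without them.

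The KO pool held embryos of both sexes, whose cells can be separated by Xist and Y-linked UMIs. The 57 male stem-gated KO cells had 356 CPM of Ltb (313 to 403) and the 334 female ones 356 CPM (337 to 376), with a log2 male/female ratio of -0.00 (-0.20 to 0.20). Both were above the 204 CPM (193 to 215) of female WT cells. Male and female KO cells stem from different embryos but share 1 library and its depth, so they are not replicates of the genotype. In the lymphoid gate male KO cells were at 99.1 CPM and female WT cells at 73.0 CPM, a log2 difference of 0.44 (-0.02 to 0.88).

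The genes around Ltb, which lies in the major histocompatibility complex, were examined next. Of 19 other genes that start within 100 kb, 13 had at least 20 UMIs in stem-gated cells, with a median log2 KO/WT of 0.09. Lst1, which starts 6000 bases from Ltb, had 228 (WT) and 205 CPM (KO), a log2 difference of -0.15 (-0.26 to -0.04). The more distant genes H2-D1, Csnk2b, Ddx39b, Prrc2a, Bag6, Nfkbil1 and Gpank1 lay between -0.17 and 0.19. Apom, with 12 and 19 UMIs, and Aif1, with 12 and 13 UMIs, were past 1.5-fold upwards at 1.18 (0.06 to 2.35) and 0.63 (-0.62 to 1.89). D17H6S53E and Atp6v1g2, with at most 17 UMIs per library, were at 0.29 and 0.33. The other measured neighbour was Tnf.

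Other genes shared the pattern of Ltb over the cell types. Over the 12 gates, the profiles closest to that of Ltb among 10229 genes were those of Gm5111, Hoxa9, Gm19590, Tnfrsf18 and Epsti1, with Pearson correlations of log2(CPM + 1) of 0.965, 0.951, 0.934, 0.923 and 0.919 in WT and 0.952, 0.971, 0.926, 0.919 and 0.937 in KO. The points are gates of 1 library and share its depth. The other members correlated with Ltb less, from 0.424 for Ltbr to 0.733 for Tnfrsf1b in WT. In stem-gated cells the log2 KO/WT values of the 5 genes most like Ltb were 0.10, -0.08, -0.13, 0.06 and 0.08. Tnfrsf18, which encodes the TNF family receptor GITR, was at 19.8 (WT) and 20.7 CPM (KO).

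Outside the early progenitors Ltb was sparse. Monocyte progenitors had 29 and 28 UMIs in WT and KO, or 9.58 and 13.2 CPM. Neutrophil progenitors had 17 UMIs in WT, of which 12 were in 1 cell, and 52 UMIs in KO, or 5.56 and 16.0 CPM. Basophil and mast cell progenitors had 11 UMIs in WT and 56 in KO, or 4.82 and 31.0 CPM, a log2 difference of 2.68 (1.73 to 3.76). In the same gate macrophage markers summed to 6.58 (WT) and 57.5 CPM (KO) and its own 5 markers to 1020 and 647 CPM, and their part in the Ltb value was not tested. Endothelial cells had 3 UMIs in WT and 22 in KO. Megakaryocytes were at 6.54 and 11.7 CPM and erythroid progenitors at 1.20 and 1.93 CPM. Apart from the 3 early gates, only macrophages had over 20 CPM in WT, at 33.6 CPM, and 52.2 CPM in KO.

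In the macrophage gate the Ltb was carried mostly by cells that also held stem cell transcripts. The 22 WT cells with a Hlf or Mecom UMI had 48 of the 68 Ltb UMIs and the 33 such KO cells 103 of 129. Without these transcripts, Ltb was at 18.8 CPM in 34 WT cells and 17.6 CPM in 81 KO cells. Of the basophil and mast cell gate in KO, 20 cells with such transcripts held 23 of 56 Ltb UMIs. Whether these cells were mixed droplets was not tested.

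Lta, the partner that lymphotoxin β needs for the classical surface complex, was nearly restricted to single cells. It had 79 UMIs in 13 WT cells, or 0.376% of cells (0.200 to 0.642), and 16 UMIs in 15 KO cells, or 0.340% (0.190 to 0.559). In WT, 68 of the UMIs came from 2 cells of the lymphoid gate, whereas 14 of the 15 KO cells held 1 UMI each. The highest WT cell held 45 Lta and 53 Ltb UMIs among 8789, together with 8 Il7r, 8 Id2 and 3 Tcf7 UMIs, genes known from innate lymphoid cells. The other held 23 Lta and 2 Ltb UMIs and 13 UMIs of Ebf1, a B lymphoid factor. In the lymphoid gate Lta was at 17.0 (WT) and 1.83 CPM (KO), a log2 difference of -3.22 (-4.71 to -2.03), yet without the 2 highest WT cells 5 UMIs remained in WT beside the 6 in KO. Stem-gated cells held 3 Lta UMIs in WT and 1 in KO, and multipotent progenitors 0 and 2, so that almost no Lta was detected in these gates. Of the cells with Lta, 10 of 13 in WT and 11 of 15 in KO also held Ltb. In multipotent WT cells 3 Lta UMIs would have been 0.166 CPM.

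Tnf was low in both libraries. It had 132 UMIs in each library, or 1.22 CPM (1.02 to 1.45) for WT and 1.33 CPM (1.11 to 1.58) for KO, with a log2 difference of 0.13 (-0.23 to 0.49). Among the gates the WT level ran from 0.025 CPM in erythroid progenitors to 4.95 CPM in monocyte progenitors. The highest level of any gate was 6.08 CPM, in KO basophil and mast cell progenitors. Stem-gated cells had 14 UMIs in WT and 9 in KO, multipotent progenitors 46 and 35, lymphoid-primed progenitors 16 and 16, and monocyte progenitors 15 and 9. In basophil and mast cell progenitors 6 WT and 11 KO UMIs were counted, a log2 difference of 1.21 (-0.35 to 2.93). Erythroid progenitors held 1 and 3 UMIs in 944 and 1135 cells. The interval of the Tnf ratio spanned 0 in each of the 11 gates with UMIs in both libraries, so a difference was not detectable at this depth.

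Ltbr, the receptor for the lymphotoxin complex, was found in stem cells, myeloid cells and the niche. Its WT level was highest in endothelial cells, at 46.2 CPM (34.5 to 60.6), macrophages, at 40.1 CPM (31.8 to 49.8), hepatocytes, at 38.7 CPM (30.1 to 48.8), and monocyte progenitors, at 34.7 CPM (28.4 to 42.0), 4 gates whose intervals overlap. Stem-gated cells had 148 UMIs or 20.7 CPM (17.5 to 24.3) in WT and 92 UMIs or 18.3 CPM (14.8 to 22.5) in KO, a log2 difference of -0.17 (-0.56 to 0.21). Multipotent progenitors were at 24.0 and 21.5 CPM. Erythroid progenitors were at 3.98 and 4.33 CPM, and erythroblasts at 0.576 and 0.725 CPM. None of the 12 gates had a KO/WT interval for Ltbr that excluded 0. Over all cells, mixed ones included, the difference was -0.13 (-0.24 to -0.02). The lowest ratio was in basophil and mast cell progenitors, at -0.69 (-1.43 to 0.01).

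Ltb and Ltbr met in few of the same cells. After thinning to 5000 UMIs, 25 of 435 WT cells and 31 of 417 KO cells of the stem gate held both, or 5.75% and 7.43%. The products of the single shares were 5.91% and 6.60%. The shares at this depth count captured RNA molecules and understate the cells that express both.

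Tnfrsf1a, the death domain receptor of TNF, had its highest level in endothelial cells, at 120 CPM (101 to 142) for WT and 130 CPM (111 to 151) for KO. Macrophages, at 71.3 CPM (60.1 to 83.9), monocyte progenitors, at 62.4 CPM (53.8 to 72.0), and neutrophil progenitors, at 59.2 CPM (50.9 to 68.5), followed in WT with overlapping intervals. Stem-gated cells had 46.6 CPM (41.8 to 51.9) for WT and 43.6 CPM (38.1 to 49.8) for KO, a log2 difference of -0.10 (-0.35 to 0.15). Multipotent progenitors were at 36.7 and 37.8 CPM. Lymphoid-primed progenitors had 139 UMIs or 32.4 CPM in WT and 71 UMIs or 21.6 CPM in KO, a log2 difference of -0.58 (-1.02 to -0.16), and monocyte progenitors a difference of -0.41 (-0.77 to -0.05). Genes at least 1.5-fold below WT made up 4.63% of those tested in the lymphoid gate and 4.76% in the stem gate, where no member was past that ratio.

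Tnfrsf1b, the second TNF receptor, was sparse outside the macrophages. Macrophages held 26 UMIs or 12.9 CPM (8.40 to 18.9) in 56 WT cells. In 114 KO cells they held 65 UMIs or 26.3 CPM (20.3 to 33.5), a log2 difference of 1.03 (0.36 to 1.75). Among genes with at least 20 UMIs in the macrophage gate, 9.86% of 9677 were at least 1.5-fold above WT. Monocyte progenitors had 8.92 and 9.88 CPM and stem-gated cells 53 and 25 UMIs, or 7.40 and 4.98 CPM, with a log2 difference of -0.57 (-1.32 to 0.14). Lymphoid-primed progenitors had 23 UMIs in WT and 6 in KO, or 5.36 and 1.83 CPM, a log2 difference of -1.55 (-3.14 to -0.22). With Lta, it was the member past 1.5-fold downwards in the lymphoid gate. Macrophage depth fell more than that of other gates, with a WT/KO ratio of the median UMIs of 1.96, and macrophage markers in this gate summed to 4132 (WT) and 5215 CPM (KO). The part of these in the Tnfrsf1b value was not tested.

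**Figure D5:**
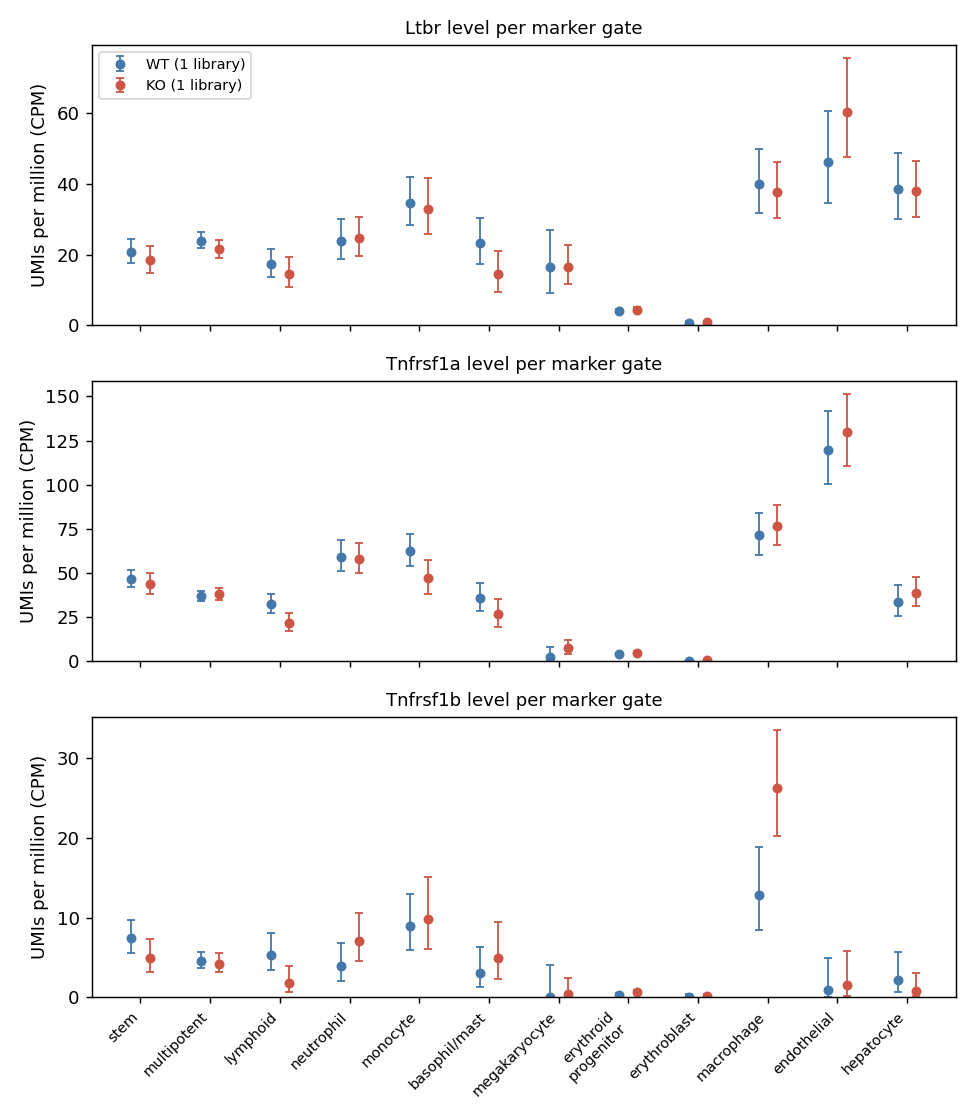
Levels of Ltbr, Tnfrsf1a and Tnfrsf1b in CPM (each panel from 0 on its own scale) in each marker gate, with 1 point per library and exact 95% Poisson intervals (counting error only). WT and KO points overlap in most gates, endothelial cells lead for Ltbr and Tnfrsf1a, and macrophages lead for Tnfrsf1b at 12.9 and 26.3 CPM.

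The wider families were taken from lists of ligands, receptors and signalling genes. Several of these genes had few UMIs, and the lists were chosen with earlier results known. Of 18 TNF superfamily ligands, 7 were measured in stem-gated cells and Ltb was the only one past 1.5-fold, with a list median of -0.12 on the log2 KO/WT scale beside -0.0010 over all genes. Of 28 receptors, 14 were measured, 2 were past 1.5-fold upwards and 2 downwards, and the median was -0.06. Over all 11143 genes measured in this gate, 3.16% were past that ratio upwards and 4.76% downwards. Tnfrsf10b (8 and 12 UMIs) and Tnfrsf26 (18 and 21 UMIs) were at 1.10 and 0.74 with intervals that spanned 0. Tnfrsf22, with 19 and 8 UMIs, was at -0.73 (-2.14 to 0.52), and Tnfrsf4, which encodes OX40, with 18 and 4 UMIs at -1.66 (-3.68 to -0.05).

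All 8 genes of the alternative pathway below the lymphotoxin β receptor were measured. Relb, which encodes its transcription factor, was the only one past 1.5-fold in the stem gate. Of all genes there, 3.16% were past that ratio upwards and 4.76% downwards. Relb had 35 UMIs over 34 cells in WT and 58 UMIs over 49 cells in KO. Its level was 4.89 (WT) and 11.6 CPM (KO), a log2 difference of 1.24 (0.61 to 1.89). In multipotent progenitors Relb had 42 and 54 UMIs, a difference of 0.91 (0.30 to 1.52), and in lymphoid-primed progenitors 13 and 32 UMIs, a difference of 1.68 (0.71 to 2.74). Nfkb2, which encodes the partner of RELB, was at 0.47 (-0.06 to 0.99), 0.56 (0.09 to 1.04) and, with 22 and 11 UMIs, at -0.62 (-1.81 to 0.49) in the stem, multipotent and lymphoid gates. The median of the list was 0.08, 0.32 and -0.17 in these gates, beside -0.0010, 0.03 and 0.02 over all genes. In the lymphoid gate 2 of the 8 were past 1.5-fold upwards, Relb and Chuk, the latter at 0.63 (-0.03 to 1.29). Nfkb2 was the 1 past it downwards, beside 4.20% of all genes upwards and 4.63% downwards. Relb was not matched on depth. It is also a target of NF-κB.

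Among 19 genes of the TNF receptor 1 signalling complex, all measured, Tnfaip3 was the only one past the ratio, with 11 and 16 UMIs and a log2 difference of 1.05 (-0.14 to 2.31). It encodes A20, which limits TNF signalling. Of 24 NF-κB target genes, 19 were measured, 4 were past 1.5-fold upwards and 0 downwards, beside the 3.16% and 4.76% of all genes, with a median of 0.11. These were Relb, Tnfaip3, Bcl2a1b, with 11 and 15 UMIs, and the chemokine gene Ccl5. Ccl5 had 0 UMIs in WT and 69 in KO, but 46 of these were in 1 cell and the gene was found in 4 KO cells. In lymphoid-primed progenitors it had 0 UMIs in WT and 57 in KO, of which 55 were in 1 cell. In multipotent progenitors 20 target genes were measured, 4 were past the ratio upwards and 2 downwards, beside 3.31% and 3.18% of all genes, with a median of 0.19. Those that were lower there were the chemokine genes Ccl3, at -0.92 (-1.59 to -0.27), and Cxcl10, with 55 UMIs in WT, of which 53 were in 1 cell, and 3 in KO. In lymphoid-primed progenitors 3 of 16 were past it upwards and 1 downwards, beside 4.20% and 4.63%, with a median of -0.05. None of the 11 target genes with at least 100 UMIs in the stem gate was past 1.5-fold, a ratio that 0.637% of all genes with that count exceeded upwards. The 8 immediate early genes, which respond to handling of cells, were all measured in stem-gated cells with 0 past 1.5-fold and a median of 0.08. Fosb, the only 1 of these 8 that was past it in the other early gates, was at 0.90 (0.65 to 1.14) in multipotent and 1.08 (0.68 to 1.48) in lymphoid-primed progenitors.

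WT cells were finally split by Nfkbia itself. In the stem gate, thinned to 5000 UMIs, Ltb was at 262 CPM in 42 cells with an Nfkbia UMI and 219 CPM in 393 cells without one, a log2 difference of 0.26 (-0.17 to 0.67). Without thinning, the levels were 209 CPM in 110 cells and 204 CPM in 337 cells, a difference of 0.03 (-0.14 to 0.20). In multipotent progenitors the thinned levels were 105 CPM in 61 cells and 55.7 CPM in 621 cells, a difference of 0.91 (0.32 to 1.46). The unthinned levels were 47.2 and 44.6 CPM, a difference of 0.08 (-0.13 to 0.29). Over 20 further draws of the thinning the multipotent difference ranged from -0.18 to 1.30, with a median of 0.75, and the stem difference from -0.44 to 0.65, with a median of 0.10. Ltbr and Tnfrsf1a had differences of 0.23 (-1.47 to 1.57) and 0.04 (-1.07 to 0.98) in the thinned stem gate, and Tnf, with 0 and 2 UMIs, was too sparse to compare. In unthinned monocyte progenitors Ltb was at 15.8 CPM in 34 cells with and 4.28 CPM in 51 cells without Nfkbia, a difference of 1.89 (0.61 to 3.36). Unthinned neutrophil progenitors, with 16 and 1 UMIs, were at 3.52 (0.83 to 8.91), and 12 of the 16 UMIs were in 1 cell. Unthinned erythroid progenitors, with 30 and 19 UMIs in 271 and 673 cells, were at 1.78 (0.91 to 2.70). Thinned, monocyte progenitors held 1 and 1 Ltb UMIs, neutrophil progenitors 0 and 1 and erythroid progenitors 1 and 2, too few to compare. Unthinned cells with an Nfkbia UMI were the deeper ones, at medians of 45318 against 39853 UMIs in erythroid progenitors. In unthinned lymphoid-primed progenitors Ltb was at 37.9 CPM in 49 cells with and 93.1 CPM in 105 cells without, a difference of -1.30 (-1.73 to -0.89). Of the 252 Ltb UMIs in the cells without, 53 were in the 1 cell that also held 45 Lta UMIs. Thinned, 10 cells with held 1 Ltb UMI and 144 cells without held 97. Unthinned KO stem-gated cells were also set beside both kinds of WT cell. The log2 differences of Ltb were 0.80 (0.64 to 0.96) from WT cells with an Nfkbia UMI and 0.83 (0.72 to 0.94) from those without. Ltb was chosen as raised in KO, so both values are a description, and depth was not matched.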

How the data were processed

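Per the labels, sorted LSK cells were processed with the 10x 3' v3 kit, and the authors deposited UMI counts per gene and cell made with Cell Ranger 6.0.0 on mm10 (submitters' processing notes). The annotation used for counting is not given in the sources used here. Positions are from GENCODE vM21 of the same build, and start sequences from RefSeq.

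A minimum of 1000 detected genes and a maximum of 20% mitochondrial UMIs removed 382 of 3840 WT and 511 of 4928 KO barcodes. Totals before filtering were 109122324 and 100029143 UMIs. Gates used the summed CPM of markers per cell. Their cut-offs were settled after the marker distributions had been seen, cells past several kinds of gate stayed out as mixed (149 WT and 314 KO cells), and 37 and 70 cells passed none. Doublets called with Scrublet (scanpy 1.11.5) (3.90% in WT, 5.80% in KO) were kept. UMIs were summed per gate. Poisson intervals, conditional Clopper-Pearson intervals of KO/WT ratios and Clopper-Pearson intervals of shares are exact, and the interval of a difference of shares was built from both shares' bounds. With 1 library per genotype no p-value was computed. Sums, ratios and thinning were tested on simulated data.

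The members, lists and rules for named genes were chosen with earlier results of these data known. Named were the members, Nfkbia, listed genes with at least 20 UMIs and past 1.5-fold in stem-gated cells, the 5 genes most like Ltb over the gates, and genes within 100 kb of Ltb, Ltbr or Tnfrsf1b. Alternatives covered cell types from clusters, doublets, cell filters, sex, scaling and thinning. Matching on depth, splits by proliferation, leaving out the highest cell, thinning WT before gating and a stricter stem gate were added later, with the data in view.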

Additional observations from a re-analysis of the deposited data

Results flagged for a closer look

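Tnfrsf1b and Tnfrsf1a had KO/WT ratios of opposite sign in different gates, each with a counting interval that excluded 0. For Tnfrsf1b the log2 KO/WT was 1.03 in macrophages and 1.23 in erythroid progenitors, where 11 WT and 22 KO UMIs were counted, against -1.55 in lymphoid-primed progenitors. For Tnfrsf1a it was 2.13 in erythroblasts, which held 3 WT and 15 KO UMIs, against -0.58 in lymphoid-primed progenitors and -0.41 in monocyte progenitors. With 1 library per genotype the difference between gates was not tested.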

How the results depend on the processing

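No paired analysis was possible because only 1 library existed per genotype, and for the same reason no library could be left out. Ltb was chosen because it was raised in KO, so the spread of its ratio over the alternatives is a description. The narrower bins of raw UMIs were not among the alternatives. Their stem gate differences ran from -0.01 at 15000 to 20000 UMIs to 0.64 below 10000 UMIs. Over the 14 alternatives, the Ltb KO/WT log2 difference in the stem gate ran from 0.26 to 1.05. The alternatives that moved it were cells of 10000 to 20000 UMIs (0.26 in the stem gate, -0.024 in multipotent and -0.40 in lymphoid-primed progenitors, -0.95 in endothelial cells), cells of 0.4 to 0.8 times their library median (0.92 stem, 1.18 multipotent) and cells low in proliferation genes (1.05 stem, 1.18 multipotent, -1.02 lymphoid), all added after the data had been seen. The planned mean over cells gave 0.050 in lymphoid-primed progenitors, and leaving out doublet calls gave -0.96 in hepatocytes. The difference in Ltb-positive share became 3.73 points in the stem gate and 7.84 points in multipotent progenitors at 10000 UMIs, 8.14 (multipotent) and 4.36 (lymphoid) at 2000 UMIs, and 4.16 (stem) and 6.82 (multipotent) without thinning.

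The Nfkbia split depended most on the processing. In multipotent progenitors the log2 difference was -0.0016 with at least 2000 detected genes, 0.24 with at most 10% mitochondrial UMIs, 0.082 without thinning, 0.31 at 10000 UMIs and 2.17 for at least 2 Nfkbia UMIs against none, and the last gave -1.13 in the stem gate. With at least 100 UMIs per gene, 0 receptors, alternative pathway genes, TNF receptor 1 complex genes and NF-κB targets and 146 of all genes were past 1.5-fold, against 4, 1, 1, 4 and 882. The cause of these shifts was not tested. Of the other recomputed values, 134 main and 510 further ones stayed inside the counting interval of the main value. For list counts the allowed range was 1.5-fold. A further 24 values fell outside their range without a reversal, which was called only where the main interval excluded 0. Wide intervals can hold large shifts, as for Lta in the lymphoid gate, from -4.39 to -2.10. Depth limits Lta, Tnf and Tnfrsf1b, whose gates mostly held fewer than 100 UMIs.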

Other observations

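Ltbr and Tnfrsf1b were read with their neighbours as well. Of the genes that start within 100 kb of Ltbr, 4 others were measured in stem-gated cells. Cd27, a receptor of the TNF superfamily, had 456 UMIs in WT and 394 in KO, or 63.7 and 78.5 CPM, a log2 difference of 0.30 (0.10 to 0.50). Vamp1 and Tapbpl were at 0.09 (-0.66 to 0.82) and 0.22 (-0.39 to 0.82). Vps13d, the only measured neighbour of Tnfrsf1b, was at 0.26 (-0.23 to 0.74).

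The mixed cells stayed out of the 12 gates but counted in the values over all cells. They had 235 Ltb UMIs in 149 WT cells and 491 in 314 KO cells, or 31.6 and 53.8 CPM. Their log2 difference of Ltbr was -0.40 (-0.80 to -0.0029). In the clustering, cluster 23, a mixed one, held 104 KO cells and 0 WT cells at 42.7 CPM of Ltb.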
